A study of Mus musculus with 6 samples.

Results

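Vesicle and membrane trafficking genes were examined among the NF-YA binding sites of wild-type mouse muscle stem cells (MuSCs). Members were all peaks whose listed gene symbol began with a name stem of trafficking genes. The stems were those of Rab and Arf GTPases, coat subunits (Cop, Sec) and p24 cargo receptors (Tmed). Further stems were those of tethers (Trappc, Exoc), SNAREs (Stx, Vamp), Vps proteins and sorting nexins (Snx). These stems gave 71 of the 9056 peaks, at 63 genes. The Sec stem also took in genes that are not coat subunits, the Sec14-like proteins, the Sec22 genes and the signal peptidase subunits Sec11a and Sec11c. A peak was listed to a gene only within 10000 nt of a transcription start site. Apart from this and from having a peak in the table, neither the level nor the position of binding entered the rule. NF-YA binding was measured by CUT&RUN, in which an antibody guides a nuclease to the chromatin-bound factor and the released DNA fragments are sequenced. The cells were C57BL/6 wild-type MuSCs, cultured in vitro and in the activated, proliferating state, and the labels name no treatment. NF-YA antibody was used for 3 of the 6 samples and mouse IgG for the other 3, each numbered 1 to 3. The values used here are those of the 3 NF-YA libraries, and IgG values were not analysed here. Per the study's methods, cells positive for SCA1, CD45 or CD31 had been removed and MuSCs sorted by integrin alpha-7 or by a Pax7-zsgreen reporter, and which of both served these libraries is not stated. A binding table holds no expression, so the identity of the cells could not be checked against marker genes. The study calls the NF-YA libraries biological replicates, and the labels do not say whether each came from a separate mouse or culture.

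NF-Y is a trimer of NF-YA, NF-YB and NF-YC that binds the CCAAT box, and NF-YA makes the base-specific contacts. Trafficking genes build the route that newly made proteins take from the endoplasmic reticulum (ER) through the Golgi to the plasma membrane and that internalised proteins take through endosomes. Arf GTPases and the COPI and COPII coats form the vesicles, Rab GTPases mark the membranes, TRAPP and exocyst tether vesicles to their target, SNAREs such as syntaxins and VAMPs fuse them, and retromer, sorting nexins and Vps complexes sort cargo in endosomes. In muscle, this machinery also carries glucose transporters, growth factor receptors and adhesion proteins to the cell surface.

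NF-Y boxes are visible in the promoters with the strongest signal. Apart from *Tmed2*, stretches were chosen for the most boxes and then for nearness to the start of the gene, not to the peak centre. In *Rab40c* the printed boxes lie 384 and 416 bp from the centre, and a box 1 bp from it is not printed. One stretch each is printed for 10 of the 12 highest peaks, those with a box in a promoter peak outside GENCODE exons. A stretch from *Rab5c* is added because its gene is a close relative of *Rab5b*, and one from *Tmed2* because it holds the only ER stress response element among the members. All are read 5′ to 3′ on the strand of the gene, in GRCm38.p6 (mm10), with CCAAT, or ATTGG where the box lies on the opposite strand, in capitals. In *Tmed2* the capitals mark the whole element. The *Rab40c* stretch spans chr17:25919745-25919805 (minus strand), *Rab11b* chr17:33760762-33760790 (minus), *Rab5b* chr10:128696424-128696453 (minus), *Arf2* chr11:103966615-103966715 (plus) and *Copz1* chr15:103272566-103272629 (plus). The *Stx5* stretch spans chr19:8741338-8741366 (plus), *Rab8a* chr8:72161098-72161158 (plus), *Vamp1* chr6:125215325-125215434 (plus), *Rab40b* chr11:121388270-121388337 (minus) and *Sec23b* chr2:144556182-144556210 (plus). *Rab5c* is shown at chr11:100738248-100738276 (minus) and *Tmed2* at chr5:124540576-124540610 (plus).
Rab40c: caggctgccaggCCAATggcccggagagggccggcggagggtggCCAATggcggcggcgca
Rab11b: gagaaggcacccCCAATcaacgaacatac
Rab5b: aggtATTGGcttgcggcctcgCCAATccag
Arf2: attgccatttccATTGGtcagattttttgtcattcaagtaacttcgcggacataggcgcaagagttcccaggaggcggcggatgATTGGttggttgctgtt
Copz1: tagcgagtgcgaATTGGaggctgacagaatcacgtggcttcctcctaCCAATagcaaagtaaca
Stx5: gtggcagtctaaCCAATaggagagcggag
Rab8a: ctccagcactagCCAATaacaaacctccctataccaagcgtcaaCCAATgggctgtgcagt
Vamp1: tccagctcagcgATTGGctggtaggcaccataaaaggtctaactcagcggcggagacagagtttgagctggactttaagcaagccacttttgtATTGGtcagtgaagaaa
Rab40b: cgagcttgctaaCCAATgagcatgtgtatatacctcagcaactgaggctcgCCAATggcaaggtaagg
Sec23b: aagcgctctctgATTGGctagagcatggc
Rab5c: ggagtgtctcccATTGGtctgttctttct
Tmed2: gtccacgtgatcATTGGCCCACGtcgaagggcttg
All 12 stretches lie upstream of the transcription start site (TSS) of their gene and outside GENCODE M21 exons. The *Rab5b* and *Sec23b* stretches overlap a RefSeq exon, whose strand was not examined, and were kept to at most 30 bases.

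The values are reads per peak, normalised by the authors for library size and rounded, called normalised reads below. They are not corrected for peak length, so an order of peaks by these values is an order of totals per peak. Summed over all peaks they reached 319455, 335280 and 341177 in replicates 1, 2 and 3, and the members held 1.39%, 1.50% and 1.47% of these sums. A single read was worth 0.669, 1.48 and 1.02 normalised reads, so that 3 reads corresponded to 2.01, 4.43 and 3.06. At or below that floor were 0 members in replicate 1, 8 in replicate 2 and 3 in replicate 3. Above it in every library were 61 of the 71. The study reports that the NF-YA libraries differed in read length and in the number of peaks called. No member was at the floor in the library with the most called peaks and the shortest reads. How far the peak set, the weak members and the share of genes with a peak rest on that library was not tested. The coefficient of variation (CV) over the 3 libraries had a median of 24.02% across members (95% interval 19.7 to 31.2) and of 25.4% across all peaks. It was 9.42% for the 16 members with a mean of at least 100 and 33.0% for the 20 members below 10. Levels are averages over many cells, and the share of cells bound and the signal per bound cell cannot be told apart.

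To determine how much of the trafficking machinery carried an NF-YA peak, all protein-coding genes with these name stems in GENCODE M21 were counted. Of these 237 genes, 63 had an annotated peak (26.6%, 95% Wilson interval 21.4 to 32.5), compared with 19% of the 21951 protein-coding genes overall. A promoter peak, with its centre within 1000 bp of the TSS, was present at 56 (23.6%, 18.7 to 29.4), compared with 14.8% overall. Both shares are descriptions without a test, since the members were chosen with results known. With peaks of a mean of at least 10 alone, 48 genes (20.3%) had one, compared with 15.3% overall.

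**Figure D1:**
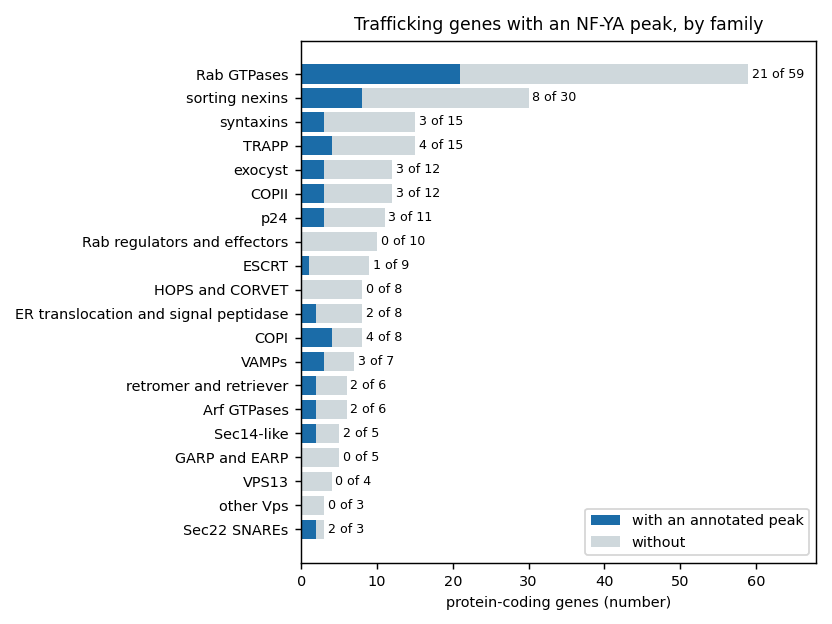
Number of protein-coding genes (horizontal axis) with the member name stems, by family, with those carrying an annotated NF-YA peak in blue and the rest in grey. Peaks were listed for 21 of 59 Rab GTPase genes and 4 of 8 COPI genes, but for none of the 8 HOPS and CORVET genes. The share over all protein-coding genes was 19%. Family labels, also that of the Sec22 genes, follow gene names only.

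The Rab GTPases, the switches that give each membrane its identity, contributed the most genes, with a peak at 21 of 59. Peaks were further listed for 2 of 6 Arf genes, 4 of 8 COPI subunits, 3 of 12 COPII genes, 3 of 11 p24 genes, 4 of 15 TRAPP subunits and 3 of 12 exocyst subunits. Peaks were found at 3 of 15 syntaxins and 3 of 7 VAMPs, and at 2 of 3 genes with the Sec22 name stem. The Sec22 genes with a peak were *Sec22a* and *Sec22c*, and none was listed for *Sec22b*. In the endosomal groups there were 8 of 30 sorting nexins, 2 of 6 retromer and retriever subunits and 1 of 9 ESCRT genes. Peaks were listed at 0 of 8 subunits of HOPS and CORVET, the tethers of late and early endosomes. The GARP and EARP tethers had 0 of 5, the lipid-transfer proteins of the VPS13 family 0 of 4, and Rab regulators and effectors 0 of 10. The share over all protein-coding genes was 19%. No family was tested against it, and shares of families with few genes are uncertain. Peaks 435 bp from the TSS of *Vps53*, of GARP and EARP, and 8 bp from that of the Rab effector *Rab3il1* were listed to no gene and are not counted here.

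A core of 26 genes was set by role to see which well-known components were without a peak. Of these, 8 had a listed peak, namely *Rab1a*, *Rab5a*, *Sec23a*, *Tmed2*, *Trappc1*, *Exoc1*, *Stx5* and *Snx1*. Over all protein-coding genes, 19% had a listed peak. No peak was listed for 17 of the core. They comprised the small GTPases *Rab7*, *Rab11a*, *Arf1* and *Arf6*, the coat subunits *Copa*, *Copb1*, *Sec13*, *Sec24a* and *Sec31a*, the translocon subunit *Sec61a1*, the p24 protein *Tmed10*, the SNAREs *Stx4a* and *Vamp2*, and the endosomal genes *Vps35*, *Vps26a*, *Vps4a* and *Snx3*. The remaining gene, *Vamp7*, was not matched in the annotation and was not analysed here. The absence of a listed peak says only that none was assigned to the gene. Among these 17, *Vps35* had a peak centred 113 bp from the TSS of a transcript. The next nearest was 5402 bp away, at *Vamp2*.

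Assignment to the nearest gene decided whether some trafficking genes had a listed peak. A further 9 peaks lay within 1000 bp of the TSS of 8 trafficking genes but were listed to a neighbour or to no gene, which would bring the total to 71 of 237 genes (29.96%, 24.5 to 36.1), compared with 22.2% of all protein-coding genes counted in the same way. The peak 113 bp from the TSS of *Vps35*, the central retromer subunit, was listed to *Orc6* and held 83, 177 and 144 normalised reads in replicates 1, 2 and 3. The peak 100 bp from the TSS of *Trappc11* was listed to *Rwdd4* and held 112, 121 and 115. Peaks 562 and 138 bp from the TSS of *Vps26b*, also of retromer, were listed to *Ncapd3* and held 42, 68 and 60 and 7, 4 and 6. Conversely, 7 of the 60 promoter members (11.7%) had the TSS of another protein-coding gene within 1000 bp, compared with 17.1% of the other promoter peaks. They were the peaks of *Stx5*, *Trappc6a*, *Rab6a*, *Trappc1*, *Rab2b*, *Rab13* and *Vps29*. Which of both genes such a peak serves was not tested.

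Most member peaks lay at promoters. Of the 71 member peaks, 60 were promoter peaks (84.5%, 74.3 to 91.1), compared with 68.4% of all peaks with a gene symbol. Both sets hold only peaks within 10000 nt of a TSS, so nearness to a TSS was in part set by the listing. Of the 9056 peaks, 5146 had a symbol and the rest could not be members. The peak centre lay upstream of the gene in 51, in an exon in 10 and in an intron in 10, and 42 peaks spanned the TSS. The median promoter member held 23, 25.5 and 20.5 normalised reads in replicates 1, 2 and 3, whereas the median of the 11 other members was 8, 10 and 9. On the log2 scale, the promoter median was higher by 1.35 ± 0.17 (SD, n = 3) and was higher in every library. Per kb of peak this difference was 0.62 ± 0.19. An exact two-sided sign permutation over 3 libraries cannot go below 0.25, so no call was made.

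**Figure D2:**
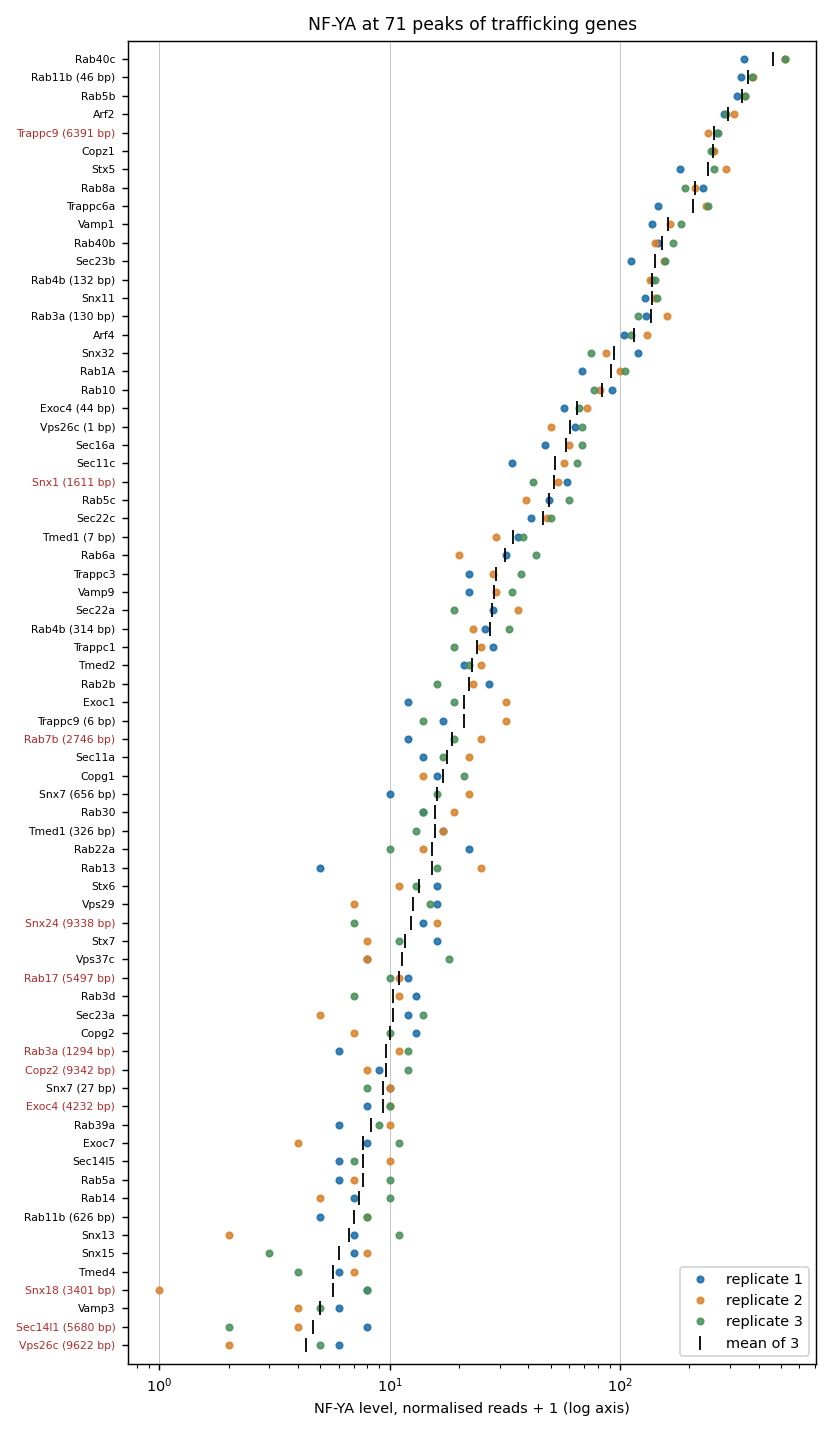
NF-YA level of all 71 member peaks, one row each, as normalised reads + 1 on a log axis, with 1 point per library and a bar at the mean. Red labels mark peaks over 1000 bp from the TSS, and bp values give that distance for them and for genes with 2 peaks. Means run from 460 at *Rab40c* to 3.33 at the distal peak of *Vps26c*, and libraries spread more widely among the weak peaks.

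Compared with promoter peaks of other genes, the median trafficking promoter was lower in every library. The 3459 other promoter peaks had medians of 31, 30 and 32 normalised reads, and the log2 ratio of trafficking to other promoters was -0.44 ± 0.20 (SD, n = 3). This ratio became 0.03 ± 0.22 when peaks with a mean below 10 were left out of both sets, so its sign depended on weak peaks. At the upper end, 15 of 60 promoter members (25%, 15.8 to 37.2) had a mean of at least 100, compared with 18.3% of the other promoter peaks.

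By total reads per peak, the 3 highest members were at Rab genes. *Rab40c*, a Rab that recruits a ubiquitin ligase, held 344, 519 and 516 normalised reads in replicates 1, 2 and 3. *Rab11b*, of the recycling endosome, held 332, 375 and 372. *Rab5b*, of the early endosome, held 322, 346 and 346. Among these 3 peaks the libraries differed most at *Rab40c*, where replicate 1 was the lowest, with a CV of 21.8%. *Rab8a*, which acts in transport to the plasma membrane, followed with 227, 210 and 191, and *Rab40b* with 145, 140 and 169. The ranges of *Rab40c*, *Rab11b* and *Rab5b* over the libraries overlapped, although *Rab40c* was the highest in each. Per kb of peak the means were 666 for *Rab11b*, 517 for *Rab40c*, 514 for *Rab5b*, 388 for *Rab8a* and 281 for *Rab40b*. *Arf2*, with 525 per kb, and a distal peak of *Trappc9*, with 520, had higher means per kb than *Rab40c* and *Rab5b*. At the other end of the Rab promoters stood a second, intragenic peak of *Rab11b*, 626 bp from the TSS, with 4, 7 and 7.

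Among the vesicle-forming genes, *Arf2*, *Arf4*, *Copz1* and *Sec23b* had means above 100, and the median over the 4 COPI peaks was 12.5. *Arf2*, a Golgi Arf GTPase that recruits coats, held 281, 310 and 286 normalised reads, and *Arf4* held 103, 130 and 110. *Copz1*, which encodes the zeta subunit of the COPI coat, held 253, 254 and 248, the tightest of the strong peaks. The weakest COPI promoter, *Copg2*, held 12, 6 and 9. *Sec23b*, a subunit of the inner COPII coat, held 110, 154 and 156. The ER export organiser *Sec16a* was intermediate with 46, 59 and 67. The lowest value among Sec genes with a promoter peak was found at *Sec14l5*, with 5, 9 and 6. Among the p24 cargo receptors, *Tmed1* held 35, 28 and 37 and *Tmed4* held 5, 6 and 3.

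Tethers and SNAREs showed the same wide range. *Trappc6a*, a subunit of the TRAPP tether, held 145, 235 and 240 normalised reads, replicate 1 being the lowest. Its peak also covered the TSS region of *Bloc1s3*. A second TRAPP peak was distal, 6391 bp upstream of *Trappc9*, and held 263, 239 and 265, which was the highest value of any member outside promoters. The promoter peak of the same gene, 6 bp from its TSS, held 16, 31 and 13. *Exoc4* was the strongest exocyst promoter with 56, 71 and 65, and *Exoc7* the weakest with 7, 3 and 10. *Stx5*, the Golgi syntaxin of ER-to-Golgi transport, held 181, 287 and 254, whereas *Stx7*, an endosomal syntaxin, held 15, 7 and 10. *Vamp1*, a vesicle SNARE, held 137, 163 and 183, and *Vamp3*, of recycling endosomes, held 5, 3 and 4.

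Most peaks of endosomal sorting genes were weak, with a median of 11.3 over the 9 peaks of sorting nexins and 11.7 over the 3 of retromer and retriever, compared with 20 over all members. Low medians were not particular to them. Syntaxins had 12.3, COPI 12.5 and exocyst 14.2, whereas VAMPs had 27.3 and TRAPP 28. *Snx11*, a sorting nexin, held 127, 140 and 143 normalised reads and *Snx32* held 119, 86 and 74. Per kb of peak their order turned, with 234 for *Snx11* and 269 for *Snx32*. *Snx15* was the lowest promoter of that family with 6, 7 and 2. *Vps26c*, a subunit of the retriever complex, led the Vps genes with 63, 49 and 67, and the ESCRT gene *Vps37c* held 7, 7 and 17. *Vps26c* also carried the weakest member of all, 9622 bp upstream, with 5, 1 and 4. At this depth neither *Vps37c* nor *Snx15* could be ordered relative to other weak peaks.

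No gene carried 3 or more peaks, and 8 carried 2, namely *Rab11b*, *Rab3a*, *Rab4b*, *Trappc9*, *Tmed1*, *Exoc4*, *Snx7* and *Vps26c*. In most pairs the peaks were unequal. *Rab3a*, of regulated exocytosis, held 129, 158 and 118 normalised reads at 130 bp and 5, 10 and 11 at 1294 bp from its TSS. *Rab4b*, of fast recycling, held 137, 134 and 140 at 132 bp and 25, 22 and 32 at 314 bp. In *Trappc9* the distal peak was the higher one, and in *Snx7* the peak nearest to the TSS, at 27 bp, held 9, 9 and 7 against 9, 21 and 15 at 656 bp.

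Some close relatives with the same basic role differed beyond the spread of their libraries, and others did not. They were compared per kb of peak, because longer peaks collect more reads, and these pairs were named after their values had been seen. Of the 3 Rab5 genes, *Rab5b* had a mean of 514 normalised reads per kb, *Rab5c* 175 and *Rab5a* 56.0. On the log2 scale *Rab5b* exceeded *Rab5c* by 1.57 ± 0.33 (SD, n = 3) and *Rab5c* exceeded *Rab5a* by 1.67 ± 0.33, without overlap between their libraries. The whole peak of *Rab5b* holds 5 boxes in 658 bp, that of *Rab5c* 1 in 276 bp and that of *Rab5a* 0 in 119 bp. Box number and peak length thus differed together, and their bearing on the level was not tested. In the printed stretch of *Rab5b*, 2 boxes lie 17 bp apart on opposite strands. *Rab3a* exceeded *Rab3d* by 2.95 ± 0.44 and *Vamp1* exceeded *Vamp9* by 2.14 ± 0.12. *Sec23b* exceeded *Sec23a* by 1.80 ± 1.06, with a range of 1.06 to 3.01 over the libraries, and *Sec23a* was at the floor of 3 reads in replicate 2. *Arf2* exceeded *Arf4* by 0.88 ± 0.10 and *Rab40c* exceeded *Rab40b* by 0.86 ± 0.32. The difference between *Sec22c* and *Sec22a* was 0.35 ± 0.55 and changed sign between libraries, and that between *Sec11c* and *Sec11a* was 0.35 ± 0.36. *Copg1* exceeded *Copg2* by 0.63 ± 0.47, with a range of 0.09 to 0.92 over the libraries.

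**Figure D3:**
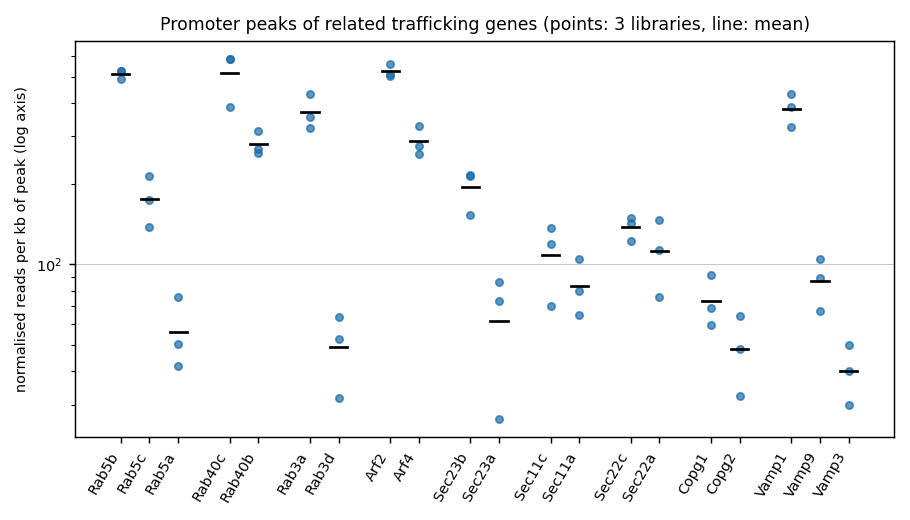
NF-YA level at the strongest promoter peak of related trafficking genes, in normalised reads per kb of peak on a log axis, with 1 point per library and a line at the mean. The Rab5 genes are separated in the order *Rab5b*, *Rab5c*, *Rab5a*, whereas the points of *Sec22c* and *Sec22a* overlap.

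The order of the strongest members depended in part on peak length. Of the 12 highest peaks, 9 were also among the 12 highest per kb, where *Rab11b* led with 666 normalised reads per kb and *Rab4b*, *Rab3a* and *Arf4* took the places of *Trappc6a*, *Rab40b* and *Sec23b*.

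To see whether the bound promoters carried the NF-Y box, CCAAT was searched on both strands in GRCm38.p6. It was found within 50 bp of the centre in 36 of the 60 promoter members (60%, 47.4 to 71.4), compared with 65.4% of all promoter peaks with a symbol. Windows of the same length 1000 bp to the left and right held it in 8 (13.3%) and 9 (15%). In the whole peak, 46 promoter members (76.7%) held at least 1 box, compared with 80.2% of the other promoter peaks. Of the promoter members, 22 (36.7%) held 2 or more, compared with 44.4%. Both *Copz1* and *Stx5* had no box within 50 bp of the centre but 4 and 3 boxes elsewhere in the peak. For comparison, 37.4% of 32851 RefSeq promoter windows, from 250 bases before to 50 after the start, held the box. These windows differ in length and placement from the peak windows above. Among genes with a matched RefSeq promoter, 72.9% of 48 trafficking genes with a promoter peak held the box, compared with 76.9% of 2533 other genes. Without an annotated peak it was 30.6% of 134 trafficking genes and 35.5% of 13105 others.

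**Figure D4:**
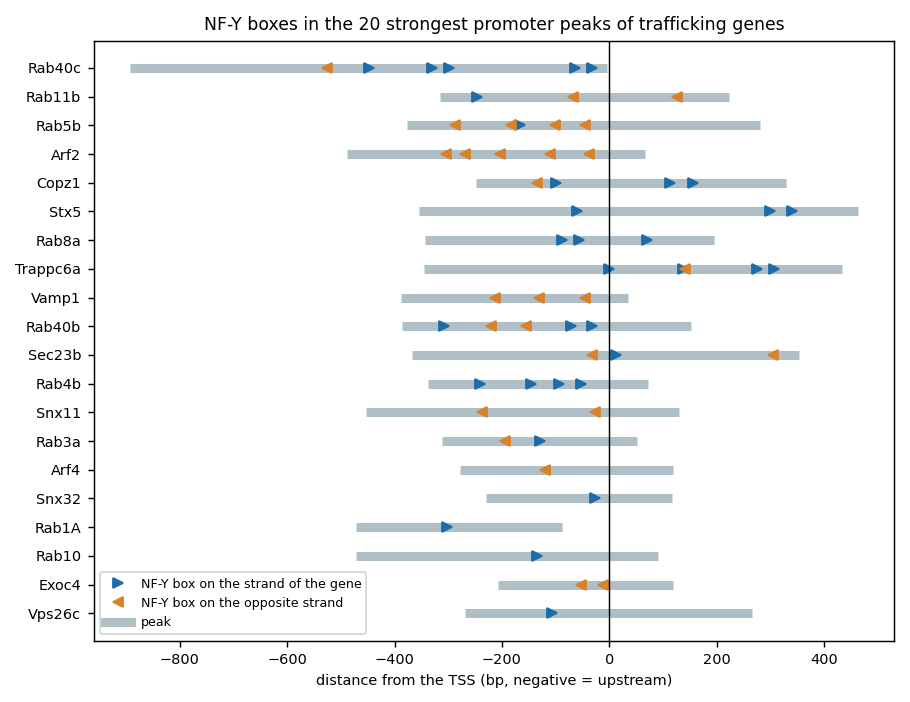
Position of NF-Y boxes (triangles) in the 20 promoter members with the highest means, in bp from the TSS, with peaks as grey bars, boxes on the strand of the gene in blue and boxes on the opposite strand in orange. *Rab40c* has 6 boxes, all upstream, whereas *Trappc6a* has most of its boxes downstream.

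The 46 peaks with a box held 95 boxes, of which 75 (78.9%) lay upstream of the TSS and 30 (31.6%) between 150 and 40 bp upstream. The median position was 61 bp upstream. Boxes lay on the strand of the gene in 47 cases and on the opposite strand in 48. Neighbouring boxes on the same strand formed 33 pairs, and 6 of these were 30 to 32 bp apart. Such pairs are visible in the printed stretches of *Rab40c* and *Rab8a*, each with 2 boxes 32 bp apart. The other spaced pairs were a second one in *Rab40c*, one in *Trappc6a* and a run of 3 boxes in *Exoc7*, which nevertheless held 7, 3 and 10 normalised reads.

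Peaks with 3 or more boxes had the highest levels and were the longest. The 14 promoter members without a box had a median mean of 9.33 normalised reads, the 24 with 1 box 22.0, the 9 with 2 boxes 21.7 and the 13 with 3 or more boxes 209. The other promoter peaks gave 10.3, 20.7, 53.0 and 123, respectively. Median peak length rose alongside, from 169 bp without a box to 557 bp with 3 or more, and longer peaks offer more sequence for a box. Per kb of peak, members with 1, 2 and 3 or more boxes held a median of 4.29, 7.63 and 6.92 boxes, compared with 4.72, 6.53 and 8.33 in the other promoter peaks. All 15 promoter members with a mean of at least 100 held a box, as did all 634 of the other promoter peaks above that level. Across the 60 promoter members, Spearman's rho with the level was 0.64 for the number of boxes and 0.96 for peak length, as descriptions across peaks called on the same libraries. Splitting the promoter members at their median level, the box lay within 50 bp of the centre in 20 of 30 in the upper and 16 of 30 in the lower part, a difference of 13.3 percentage points with an interval from -11.0 to 35.6 that includes 0. In the other promoter peaks this difference was 21.3 percentage points (18.2 to 24.4).

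**Figure D5:**
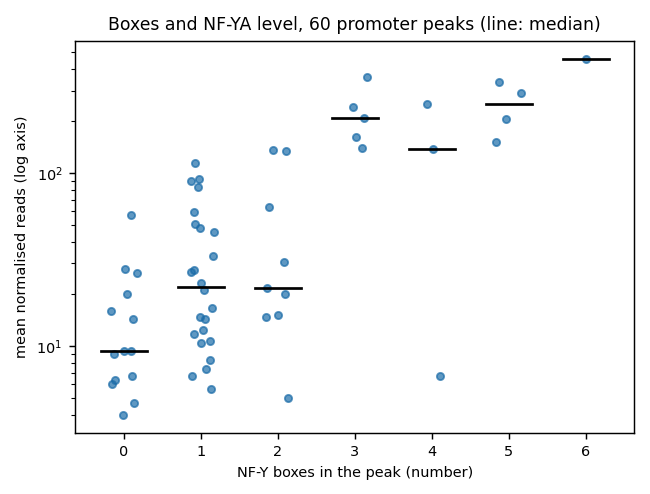
Mean of 3 libraries in normalised reads (log axis) against the number of NF-Y boxes in the peak, for the 60 promoter members, with 1 point per peak, shifted sideways at random, and a line at each median. Peaks with 3 or more boxes had a median of 209, apart from *Exoc7* with 4 boxes and a mean of 6.67.

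Other elements were counted in the same whole peaks. The ER stress response element, in which NF-Y binds CCAAT and ATF6 binds CCACG at a fixed distance, was spelled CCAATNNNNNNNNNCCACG and was found in 0 of 60 promoter members and in 0.463% of other promoter peaks. Its second form, ATTGGNCCACG, was found in 1, *Tmed2*, compared with 0.260% elsewhere. *Tmed2*, a p24 receptor for cargo between ER and Golgi, held 20, 24 and 21 normalised reads, close to the median promoter member, and the element lies 102 bp upstream of its TSS in the stretch printed above. The unfolded protein response element TGACGTG was found in 1 member, *Stx5*, which held 2 sites, compared with 3.18% elsewhere. The E-box CACGTG was found in 7 (11.7%), compared with 10.5%. The longer CLEAR core TCACGTGA, which contains the E-box and is known from lysosomal genes, was found in *Trappc6a* and *Stx6* (3.33%, compared with 1.85%). The GC box GGGCGG, bound by Sp factors, was found in 39 (65%), compared with 67.9%. The cAMP response element TGACGTCA was found in 0, compared with 2.86%. All were searched on both strands, and a match is a description of the letters only.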

How the data were processed

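CUT&RUN values of 3 NF-YA libraries were used. According to the submitters' processing notes and the study's methods, the authors trimmed reads with Trimmomatic 0.39, aligned them with STAR 2.7.9a to mm10, removed duplicates with Picard 2.25.5, called peaks with MACS2 at an FDR below 0.05, unified them, counted reads with featureCounts and normalised with DESeq2 1.30.0. Peaks were annotated to the nearest gene with a TSS within 10000 nt. The deposited values have the unit score, being normalised reads rounded to whole numbers by the authors. Rounded values permit no count model, size factors assume a stable typical peak, and peaks were called on the same libraries.

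Members and lists were chosen with earlier results of these data known. The rule's closing full stop was read as punctuation. Named were the 12 highest members, the highest and lowest promoter peak per family, peaks with an ER stress response element and the core of 26 genes. Other genes were named after their values had been seen. The value of 1 read per library was estimated from the rounded values by maximum likelihood. Shares carry 95% Wilson intervals, differences Newcombe intervals, and both, like the floor of 3 reads, cover counting error only. GENCODE M21 and RefSeq (both GRCm38) supplied genes and sequence. Printed stretches took the most boxes that fitted with 12 flanking bases. Functions were tested on simulated data. Python 3.11.15, numpy 2.4.6, pandas 2.3.3, scipy 1.17.1, pysam 0.24.0 and matplotlib 3.10.9 were used.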

Additional observations from a re-analysis of the deposited data

How the results depend on the processing

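Under 48 alternatives to the 7 main values, 40 stayed within their error, 7 moved beyond it and 1 reversed. The log2 ratio of trafficking to other promoter peaks reversed from -0.44 to 0.028 with peaks of a mean of at least 10 only. With that minimum, the share of trafficking genes with an annotated peak was 20.3%. The share of trafficking peaks near the TSS was 91.5% with a limit of 5000 bp. The log2 ratio of promoter to other trafficking peaks was 1.54 with a limit of 500 bp and 0.62 per kb. CCAAT was found in 75% of promoter peaks when searched to 100 bp from the centre, and in 76.7% when the whole peak was searched, as wider windows hold more sequence. Leaving out each library in turn, the log2 ratio of promoter peaks to the remaining ones lay between 1.27 and 1.44, that of trafficking to other promoters from -0.54 to -0.33, the CCAAT difference between both parts by level from 10.7 to 24.03 percentage points and the median CV from 17.7 to 20.3%. The cause of the reversal and of the shifts by distance limit was not tested. Reading the full stop of the name rule as a further character left 63 peaks, and its values stayed within error. No paired analysis was possible because values of only one group of libraries were used. Depth limits peaks below about 10 normalised reads most, as single reads are worth up to 1.48.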

Other observations

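A list of 113 trafficking genes outside the name stems was examined in the same way. Of these, 26 (23.0%, 95% Wilson interval 16.2 to 31.6) had an annotated peak, compared with 19% of all protein-coding genes, which lies within the interval. They carried 30 peaks, 21 of them at promoters, and CCAAT lay within 50 bp of the centre in 15 of the 21, compared with 65.4% of all promoter peaks with a symbol. *Ap2a1*, a subunit of the AP-2 clathrin adaptor of endocytosis, held 435, 431 and 456 normalised reads in replicates 1, 2 and 3. *Gbf1*, the exchange factor that activates Arf GTPases at the Golgi, held 202, 254 and 241. *Napa*, the SNAP that works with NSF to take SNARE complexes apart, held 214, 213 and 190. *Lman2*, a cargo lectin, held 177, 210 and 207, and *Dnm2*, the dynamin that cuts vesicles from membranes, held 158, 185 and 170. The 5 were named after their values had been seen.

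No peak was listed for *Arcn1*, which encodes the delta subunit of COPI, for *Sar1a* and *Sar1b*, the GTPases of COPII, for *Nsf* or for the clathrin heavy chain gene *Cltc*. Of the COG complex of Golgi tethering, only *Cog2* carried a peak, with 21, 12 and 10 normalised reads.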
